A study of Homo sapiens with 8 samples.

Results

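The pro-apoptotic arm of the BCL2 family was followed by RNA-seq of poly(A) mRNA in a line of human acute myeloid leukaemia cells, AML-OCI3. The members were 10 of the 29811 genes listed in the deposited tables, chosen by symbol: the BH3-only genes BCL2L11, BBC3, PMAIP1, BID, BAD, BIK, BMF and HRK, and the effectors BAX and BAK1. The groups were 40 nM JIB-04 for 24 h, DMSO for 24 h, 40 nM JIB-04 for 48 h and DMSO for 48 h, and each of these 4 groups had 2 libraries. JIB-04 inhibits Jumonji-domain histone demethylases, and DMSO is its solvent. The study asked how JIB-04 makes such cells sensitive to venetoclax, an inhibitor of BCL2, but none of the 8 libraries carries a venetoclax label. Nothing in the labels says that the 2 libraries of a group came from separate cultures, so the tests measure only the spread between these libraries, which may be technical.

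Proteins of the BCL2 family decide whether the outer mitochondrial membrane is opened. BAX and BAK1 form the openings, the anti-apoptotic members such as BCL2 and MCL1 hold them back, and the BH3-only proteins carry a short helix, the BH3 domain, that fits into a groove of the anti-apoptotic proteins. The products of BCL2L11 (BIM), BBC3 (PUMA) and BID can also activate BAX and BAK1 directly, while those of BAD, PMAIP1 (NOXA), BMF, BIK and HRK act mainly by occupying anti-apoptotic partners. Venetoclax occupies the same groove of BCL2, which is why BIM released from BCL2 is a central part of its action in leukaemia cells.

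The coding stretch of this domain is shown for all 10 members because it is the sequence feature they have in common. Each line gives 27 bases of the GENCODE 29 coding sequence on hg38, 5′ to 3′ on the gene's own strand. Capitals mark the codon of the conserved leucine and, 3 residues further on, the codons of the small residue and the aspartate.
BCL2L11 (chr2:111150103-111150129, plus strand): TTGcggcgtattGGAGACgagtttaac
BBC3 (chr19:47226582-47226608, minus strand): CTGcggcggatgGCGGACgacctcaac
PMAIP1 (chr18:59902673-59902699, plus strand): CTCaggagatttGGAGACaaactgaac
BID (chr22:17739418-17739444, minus strand): CTCgcccaggtcGGGGACagcatggac
BAD (chr11:64271625-64271651, minus strand): CTCcggaggatgAGTGACgagtttgtg
BIK (chr22:43127716-43127742, plus strand): CTGgcctgcatcGGGGACgagatggac
BMF (chr15:40104198-40104224, minus strand): CTTcagtgcattGCAGACcagttccac
HRK (chr12:116881173-116881199, minus strand): CTCaaggcgctaGGCGACgagctgcac
BAX (chr19:48955787-48955813, plus strand): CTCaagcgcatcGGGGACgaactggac
BAK1 (chr6:33575390-33575416, minus strand): CTCgccatcatcGGGGACgacatcaac

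The stretches were found by searching for a leucine and, 3 residues further on, a small residue and an aspartate. The residue after the aspartate was also restricted. Only 6 of the 27 positions held the same base in all 10 stretches, and 3 of these 6 spell the aspartate codon. Bases that all codons of leucine or of aspartate share were fixed by this search. BIK and BAK1 had 21 identical bases, the most of any pair, and BID and BMF had 10, the fewest. The stretch of BCL2L11 was found in 7 of its 17 annotated coding transcripts, that of BBC3 in 2 of 4 and that of BID in 4 of 11. Transcripts whose annotated coding sequence does not begin with ATG were counted but not searched. A gene-level count of these genes may thus include transcripts without the stretch. In BAK1 it lies in all 3.

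The line was checked against its label. CD33, a myeloid surface marker, lay between 80.2 and 104.66 TPM in the 8 libraries, and FLT3, a receptor kinase of myeloid progenitors, between 52.8 and 83.8 TPM. LYZ, SPI1 and CEBPA were at least as high as 61.6 TPM in every library. MPO, ITGAM and CD14 stayed at or under 1.91 TPM. Of the markers of fibroblast, epithelial, erythroid, B or plasma and T or NK cells, NCAM1 and PDGFRB were the only ones to exceed 1 TPM, at 1.46 to 3.15 and 0.1 to 1.04. Library totals lay between 18783093 and 22193377 counts, at which 1 count corresponds to 0.0451 to 0.0532 CPM, the count scaled to a library of fixed total, here before TMM scaling.

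In TPM, which allow for gene length, the members spanned a wide range. BAX was highest, with a median of 189 TPM over the 8 libraries (142 to 229.97), followed by BID at 70.0 (52.1 to 118). Neither range overlapped that of the next member. PMAIP1 at 33.0 (25.4 to 37.9), BAK1 at 28.6 (23.9 to 36.4) and BCL2L11 at 17.2 (11.8 to 24.6) came next, and neighbours among these 3 did overlap. BAD at 7.64, BIK at 6.92, BBC3 at 5.88 and BMF at 5.73 TPM overlapped from each to the next, and all 4 lay below BCL2L11 in every library. HRK had 1 count in the first JIB-04 library at 48 h and 0 in the other 3 libraries of that time. A count of 0 allows up to 3 counts, or 0.135 to 0.160 CPM at these depths. HRK was not listed in the table for 24 h, which holds no gene whose counts are all 0, and was not tested.

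Differences were tested in edgeR with the quasi-likelihood F test on all 8 libraries, for 15248 genes including the other 9 members. A gene was called at an adjusted p under 0.05, adjusted over all genes tested. In comparisons of JIB-04 with DMSO, rose and fell mean relative to DMSO of the same time. At 48 h, 1 of the 9 members was called, BCL2L11, and it rose. The background in the same comparison was 59 genes, or 0.387% of those tested. The libraries of BCL2L11, BBC3, BAD and BAK1 were higher with JIB-04 than with DMSO without overlap, as were those of 25.8% of all genes, and those of PMAIP1 and BMF were lower without overlap, as were those of 23.7%. The members' median log2 fold change was 0.14, against 0.014 for all genes. BCL2A1, which encodes an anti-apoptotic partner of BIM and NOXA, rose as well. In these bulk libraries, more cells with a transcript and more transcript per cell cannot be told apart. None of the 10 myeloid markers was called at 48 h (median log2 fold change 0.38), LYZ, which encodes lysozyme, having 0.62 ± 0.12 (edgeR adjusted p 0.0981). With each library's trend over gene GC content taken out, LYZ was called. It was higher with JIB-04 than with DMSO by 0.65 ± 0.082 (edgeR adjusted p 0.00171, 8.62% of all genes called). From the counts as deposited, LYZ had 211 and 207 CPM with JIB-04 at 48 h, against 189 and 219 CPM at 24 h. With DMSO it went from 211 and 186 CPM at 24 h to 135 and 137 CPM at 48 h. The part of LYZ in the result for BCL2L11 was not tested.

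**Figure D1:**
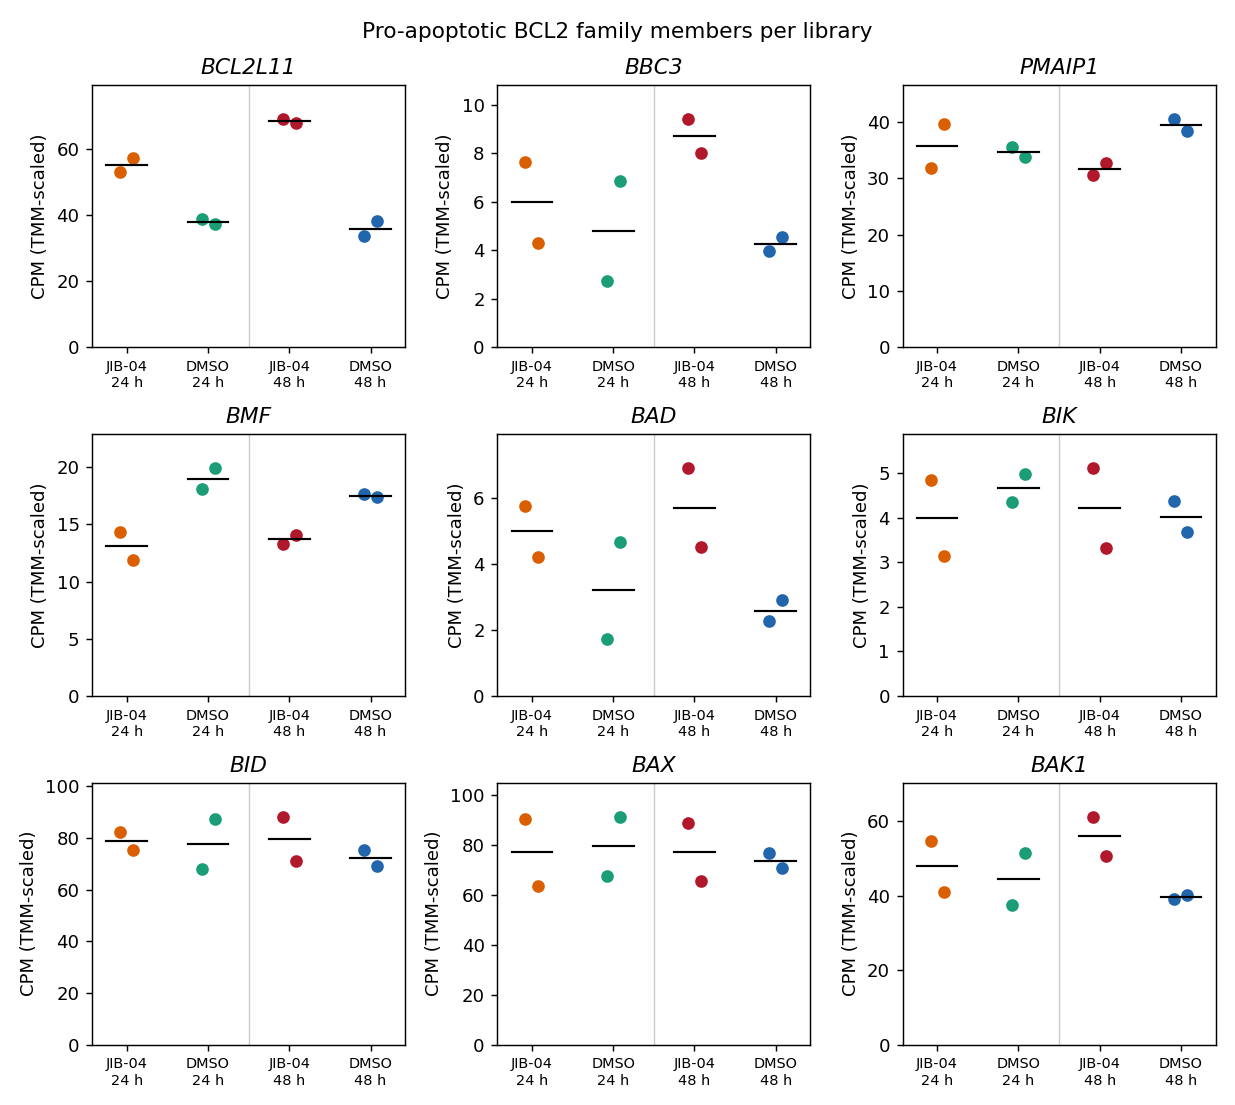
Level of each of the 9 tested members in CPM (y axis from 0, scaled by TMM) in the 8 libraries. Points are libraries, 2 per group, and the bar is their mean; for BCL2L11 the JIB-04 libraries at 48 h (69.2 and 68.0 CPM) stand well above those with DMSO (33.6 and 38.2 CPM).

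BCL2L11 (ENSG00000153094; chr2:111119378-111168447, plus strand) encodes BIM, which binds every main anti-apoptotic member and activates BAX and BAK1. It had 69.2 and 68.0 CPM in the JIB-04 libraries at 48 h, against 33.6 and 38.2 CPM in the DMSO libraries at 48 h. At 24 h it had 52.99 and 57.4 CPM with JIB-04, against 38.7 and 37.2 CPM with DMSO. Both JIB-04 libraries were above both DMSO libraries at each time, and the DMSO libraries of the 2 times overlapped. The fitted difference at 48 h was 0.93 ± 0.12 on the log2 scale (SE; 95% interval 0.65 to 1.21), or 1.91-fold, with an adjusted p of 0.0335 in edgeR. At 24 h it was 0.54 ± 0.12 (interval 0.26 to 0.82), or 1.45-fold, with an edgeR adjusted p of 0.219. No gene was called at 24 h (0.0% of 15248; 1647 had an unadjusted p under 0.05, and DESeq2 called 87).

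BCL2L11 was not called at 48 h when any 1 library of that time was left out. Such a fit leaves an arm with 1 library, and calls over all genes fell in each. Some other genes were still called without either JIB-04 library of 48 h, so only the effect sizes are read here. The log2 difference of BCL2L11 was 0.90 without the first JIB-04 library and 0.95 without the second. Without the first DMSO library it was 0.84, and without the second 1.03. With JIB-04, BCL2L11 was higher at 48 h than at 24 h by 0.31 ± 0.12 on the log2 scale, with an adjusted p of 0.509 in edgeR. The JIB-04 effect at 48 h exceeded that at 24 h by 0.39 ± 0.17 (interval 0.0021 to 0.79). This difference was not called, with an edgeR adjusted p of 0.931, and no other gene was called in that comparison (0.0% of 15248; 798 had an unadjusted p under 0.05, and DESeq2 called 12).

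BBC3 (ENSG00000105327; chr19:47220822-47232766, minus strand) encodes PUMA, a target of p53 that binds every main anti-apoptotic member. At 48 h it had 9.41 and 8.01 CPM with JIB-04, against 3.96 and 4.54 CPM with DMSO. At 24 h it had 7.64 and 4.31 CPM with JIB-04, against 2.72 and 6.84 CPM with DMSO. The groups were apart at 48 h, while at 24 h each group held a high and a low library. The log2 difference was 1.03 ± 0.41 at 48 h (interval 0.098 to 1.97, edgeR adjusted p 0.474) and 0.32 ± 0.41 at 24 h (edgeR adjusted p 0.846). At 48 h BBC3 thus had a larger point estimate than BCL2L11, with an SE more than 3 times as large.

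BAD (ENSG00000002330; chr11:64269830-64284704, minus strand) encodes a protein that binds BCL2 and its closest relatives and is held inactive by phosphorylation. It had 6.91 and 4.50 CPM with JIB-04 at 48 h, against 2.26 and 2.91 CPM with DMSO. At 24 h it had 5.76 and 4.21 CPM with JIB-04, against 1.73 and 4.67 CPM with DMSO. The groups were apart at 48 h and overlapped at 24 h. The log2 difference was 1.13 ± 0.43 at 48 h (edgeR adjusted p 0.457) and 0.63 ± 0.42 at 24 h (edgeR adjusted p 0.658). BAD had only 35 to 127 counts per library, and GPR137 lies across it on the opposite strand with 1009 counts in all, against 676 for BAD. GPR137 differed by 0.19 ± 0.31 at 48 h.

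PMAIP1 (ENSG00000141682; chr18:59899948-59904306, plus strand) encodes NOXA, which binds MCL1 and BCL2A1. At 48 h it had 30.6 and 32.8 CPM with JIB-04, against 40.5 and 38.4 CPM with DMSO. At 24 h the JIB-04 libraries, at 31.8 and 39.7 CPM, lay on both sides of the DMSO libraries, at 35.6 and 33.9 CPM. The log2 difference at 48 h was -0.32 ± 0.14 (interval -0.64 to 0.011, edgeR adjusted p 0.534), opposite in sign to that of BCL2L11, and at 24 h it was 0.041 ± 0.14.

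BMF (ENSG00000104081; chr15:40087890-40108892, minus strand) encodes a BH3-only protein tethered to a dynein light chain. It had 14.4 and 11.9 CPM with JIB-04 at 24 h, against 18.1 and 19.9 CPM with DMSO, and 13.3 and 14.1 CPM with JIB-04 at 48 h, against 17.6 and 17.4 CPM with DMSO. The JIB-04 libraries were below the DMSO libraries at each time. The log2 difference was -0.53 ± 0.15 at 24 h (edgeR adjusted p 0.301) and -0.35 ± 0.15 at 48 h (edgeR adjusted p 0.506). At 24 h BCL2L11 was the only member higher without overlap, as were 18.1% of all genes, and BMF the only one lower, as were 15.6%.

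Among the remaining BH3-only genes, BID (chr22:17734138-17774770, minus strand), whose product is cut by CASP8 and then moves to mitochondria, had 88.2 and 71.2 CPM with JIB-04 at 48 h, against 75.5 and 69.1 CPM with DMSO. The groups overlapped, and the log2 difference was 0.14 ± 0.16. BIK (chr22:43110748-43129712, plus strand), whose product sits in the endoplasmic reticulum, had 5.11 and 3.32 CPM with JIB-04 at 48 h, against 4.37 and 3.68 CPM with DMSO. Its log2 difference was 0.064 ± 0.28, with an interval of -0.59 to 0.71 that leaves room for a change in either direction.

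Neither effector was called from the counts as deposited. BAX (ENSG00000087088; chr19:48954815-48961798, plus strand) had 88.8 and 65.4 CPM with JIB-04 at 48 h, against 76.7 and 70.5 CPM with DMSO. The DMSO libraries lay between the JIB-04 libraries, and the log2 difference was 0.066 ± 0.22 (interval -0.44 to 0.57). BAK1 (ENSG00000030110; chr6:33572547-33580293, minus strand) had 61.1 and 50.6 CPM with JIB-04 at 48 h, against 39.0 and 40.1 CPM with DMSO. Its groups were apart at 48 h, and the log2 difference was 0.50 ± 0.20 (interval 0.043 to 0.95, edgeR adjusted p 0.474). At 24 h the JIB-04 and DMSO libraries of BAX and of BAK1 overlapped, with log2 differences of -0.045 ± 0.22 and 0.11 ± 0.20. Between 48 h and 24 h no member was called with JIB-04 (0.203% of all genes) or with DMSO (0.426% of all genes). With JIB-04, BCL2L11 and BBC3 were higher at 48 h than at 24 h without overlap, as were 16.6% of all genes, and no member was lower, as were 16.0%. With DMSO, PMAIP1 was higher at 48 h than at 24 h without overlap, as were 25.9% of all genes, and BMF was lower, as were 18.7%. These time comparisons use the same libraries as the comparisons with DMSO.

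The spread between the 2 libraries of a group went with the GC content of the gene. Over 11842 genes, Spearman's rho between GC content and the difference of the second from the first library was -0.829 in JIB-04 at 24 h, 0.769 in DMSO at 24 h, -0.788 in JIB-04 at 48 h and -0.0285 in DMSO at 48 h. BAD and BBC3, with 65.0% and 64.4% GC, are more GC-rich than 97.4% and 96.6% of genes, while BCL2L11 has 50.2%. Between the DMSO libraries at 24 h, BAD differed by 1.38 and BBC3 by 1.30 on the log2 scale, and BCL2L11 by -0.058. At 48 h the GC trend alone put BBC3 at 0.35 and -0.0091 in the JIB-04 libraries, against -0.20 and -0.12 in the DMSO libraries. For BCL2L11 the trend was within 0.029 of 0 in each library at 48 h.

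**Figure D2:**
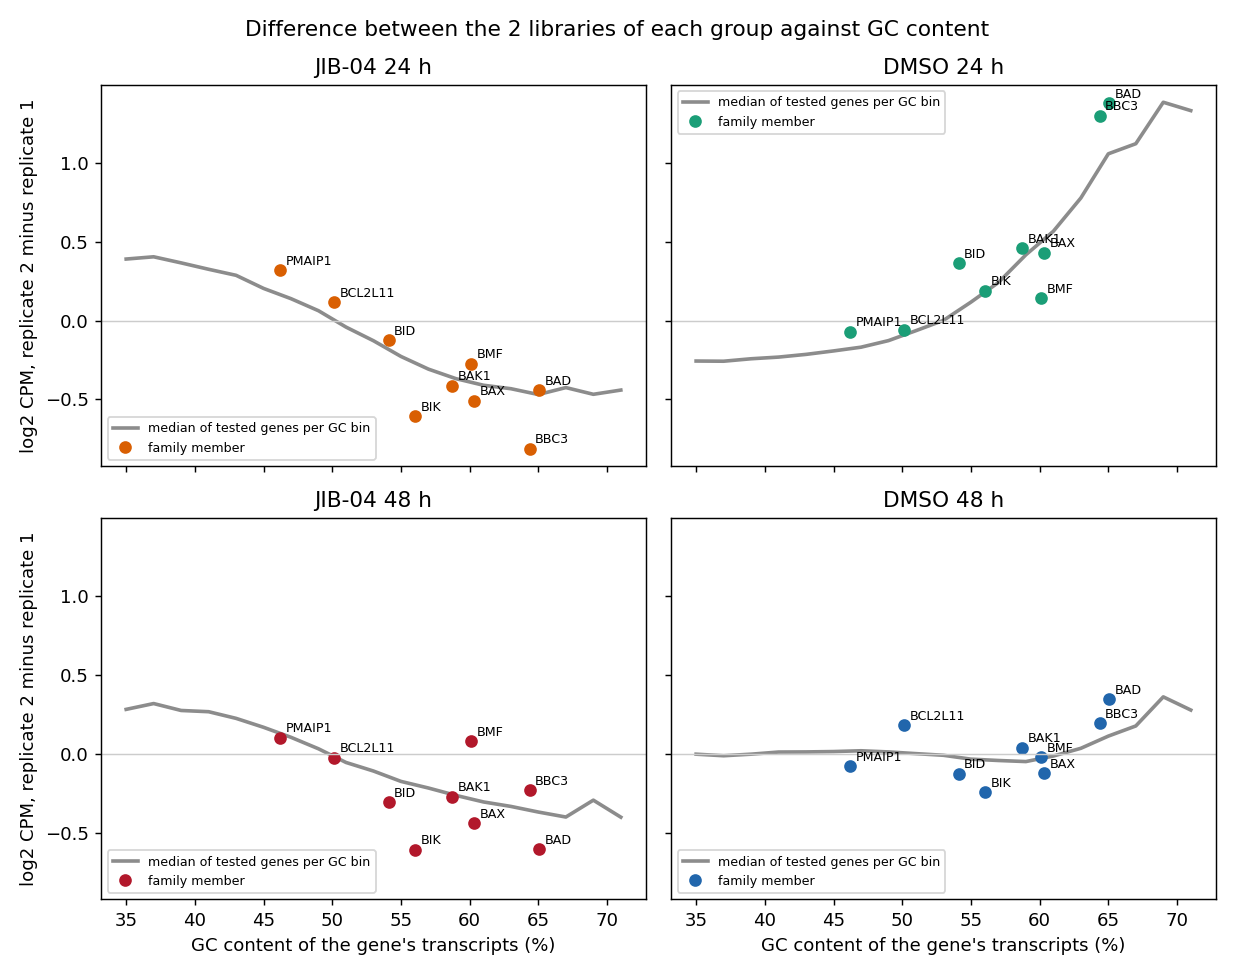
Difference between the second and the first library of each group (y axis, log2 CPM) against the GC content of the gene (x axis, percent). Points are the 9 tested members and the line is the median of all tested genes in GC bins 2% wide; BAD and BBC3, at the GC-rich end, follow the rise of the line in DMSO at 24 h, and BCL2L11, at 50.2% GC, stays near 0.

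When each library's trend with GC content was taken out before the same edgeR test, more members were called. At 48 h, 8.62% of all genes were called. Of the 9 members 4 rose, where 5.08% of all genes did, and none fell, where 3.54% did. BCL2L11 rose by 0.96 ± 0.074 (adjusted p 0.000125), BAK1 by 0.37 ± 0.064 (adjusted p 0.00769), BBC3 by 0.70 ± 0.18 (adjusted p 0.0391) and BAD by 0.76 ± 0.19 (adjusted p 0.0412). The estimates of BBC3, BAD and BAK1 (0.37 against 0.50) were smaller than without this step, and that of BCL2L11 was nearly the same. BMF at -0.51 ± 0.15 (adjusted p 0.0622) and PMAIP1 at -0.29 ± 0.078 (adjusted p 0.0520) were not called. BAX, at -0.12 ± 0.077, had the opposite sign from the counts as deposited and was not called in either.

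At 24 h, with the GC trend taken out, BCL2L11 rose by 0.54 ± 0.074 (edgeR adjusted p 0.00275) and BMF fell by 0.55 on the log2 scale (edgeR adjusted p 0.0425), where 11.1% of all genes were called, 5.79% higher and 5.34% lower. BAD missed the threshold with 0.65 ± 0.19 (edgeR adjusted p 0.0559). BCL2L11 also rose between 24 h and 48 h with JIB-04, by 0.31 ± 0.072 (edgeR adjusted p 0.0307; 7.35% of all genes called), and no member was called between these times with DMSO (14.2% of all genes called). No member was called in the difference between the effects at the 2 times (1.34% of all genes called), where BCL2L11 had 0.42 ± 0.10 (edgeR adjusted p 0.0915). The cause of the GC trends was not tested.

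**Figure D3:**
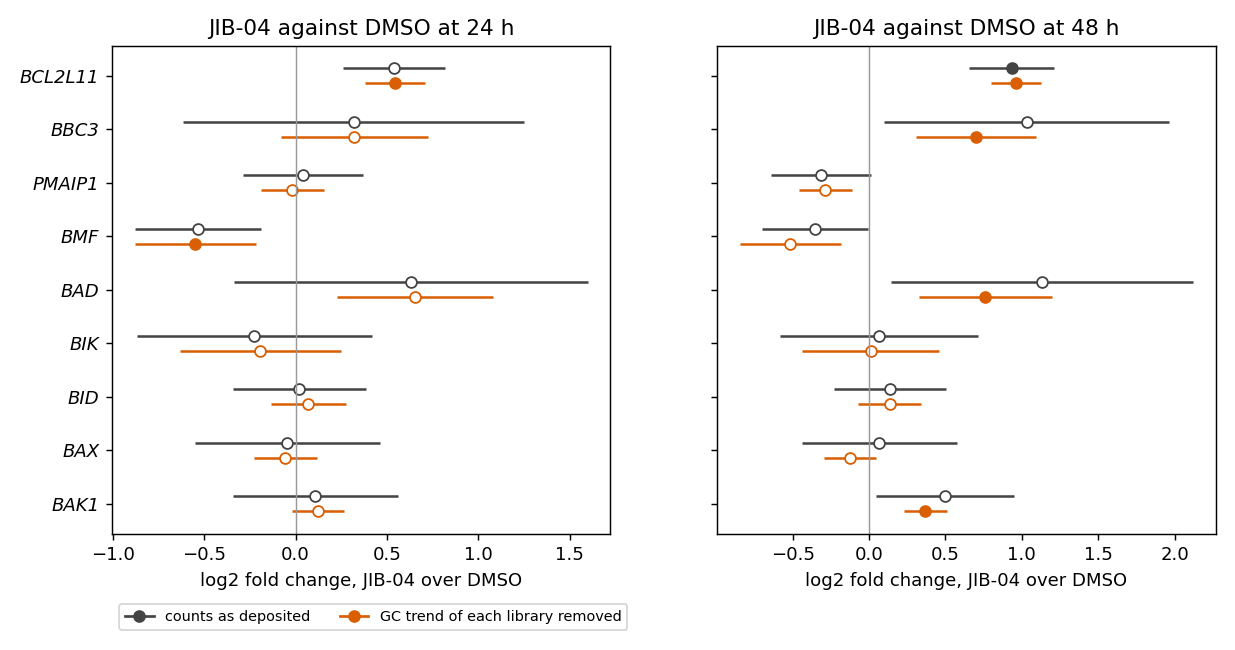
Log2 fold change of JIB-04 over DMSO (x axis) with its 95% interval for each tested member at 24 h (left) and 48 h (right), from the counts as deposited (grey) and with each library's GC trend removed (orange). Filled points passed an adjusted p of 0.05 in edgeR; at 48 h BCL2L11 is filled in both, and BBC3, BAD and BAK1 only with the trend removed.

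The authors' deposited table gives adjusted p-values of its own. In the authors' deposited table for 48 h, BCL2L11 had a log2 fold change of 0.93 (adjusted p 1.71e-08), BBC3 1.03 (adjusted p 0.0305) and BAK1 0.49 (adjusted p 0.0389), all under 0.05, while BAD had 1.13 (adjusted p 0.0948). The authors' deposited table called 3.43% of its 12773 genes with an adjusted p at 48 h. In the authors' deposited table for 24 h no member was under 0.05 (0.091% of 25265 genes called).

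The partners of these genes were examined as lists. Of 5 tested anti-apoptotic members, 1 rose at 48 h and none fell (0.387% of all genes called), with a list median of 0.12 against 0.014 for all genes. That member was BCL2A1, with 12.2 and 17.01 CPM with JIB-04, against 3.50 and 4.90 CPM with DMSO, a log2 difference of 1.80 ± 0.25 (edgeR adjusted p 0.0353). At 24 h BCL2A1 had 5.48 and 6.59 CPM with JIB-04, against 4.36 and 3.49 CPM with DMSO, and was not called. With the GC trend taken out, 1 of the 5 rose at 48 h and 1 fell, where 5.08% of all genes rose and 3.54% fell. The one that fell was BCL2, the target of venetoclax, by 0.26 on the log2 scale (edgeR adjusted p 0.0157), and it is named here because of that value. From the counts as deposited BCL2 was not called (-0.29 ± 0.11, edgeR adjusted p 0.451).

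From the counts as deposited, none of 10 tested relatives outside the core family was called at 48 h (list median 0.0045, 0.387% of all genes called). BNIP1, an endoplasmic reticulum protein of membrane traffic, came closest at 0.50 ± 0.13 (edgeR adjusted p 0.250). With the GC trend taken out, 5.08% of all genes rose and 3.54% fell at 48 h, and 5.79% rose and 5.34% fell at 24 h. Of the 10 relatives, 1 rose at each time and none fell. It was BNIP1, at 48 h (0.53 ± 0.089, edgeR adjusted p 0.00729) and at 24 h (0.33 ± 0.090, edgeR adjusted p 0.0427). None of 13 genes of cytochrome c release and caspase execution was called at 48 h (list median 0.070, 0.387% of all genes called). CYCS, cytochrome c itself, had -0.24 ± 0.14. With the GC trend taken out, 1 of the 13 rose at 48 h and none fell, where 5.08% of all genes rose and 3.54% fell. It was VDAC2, a channel of the outer mitochondrial membrane (0.25 ± 0.063, edgeR adjusted p 0.0386). At 24 h none of the 13 rose and 2 fell, where 5.79% of all genes rose and 5.34% fell. VDAC3, another such channel, was 1 of these 2, and fell by 0.19 on the log2 scale (edgeR adjusted p 0.0347). None of 16 genes whose products bind, cut or modify BH3-only proteins was called at 48 h (list median 0.030, 0.387% of all genes called). PIM1, a kinase that phosphorylates BAD, had the lowest p of these, with 7.72 and 5.73 CPM with JIB-04 at 48 h, against 4.16 and 4.40 CPM with DMSO (0.65 ± 0.23, edgeR adjusted p 0.415). With the GC trend taken out, 1 of the 16 rose at 48 h and 1 fell, where 5.08% of all genes rose and 3.54% fell. PIM1 rose (0.61 ± 0.16, edgeR adjusted p 0.0419), and YWHAB, which encodes a 14-3-3 protein, fell by 0.20 on the log2 scale (edgeR adjusted p 0.0265). At 24 h none of the 16 rose and 2 fell, where 5.79% of all genes rose and 5.34% fell. These were YWHAB, by 0.21, and CASP8, the protease that cuts BID, by 0.34 (edgeR adjusted p 0.0195 and 0.0290). VDAC2, VDAC3, YWHAB and CASP8 are named because of these values.

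Of 18 regulators reported to act on BH3-only genes, 17 of them transcription factors and TRIB3 a pseudokinase, 2 rose at 48 h and none fell (list median 0.11), where 0.387% of all genes were called. DDIT3, which encodes CHOP, a stress factor reported to act on BCL2L11 and BBC3, had 63.7 and 60.4 CPM with JIB-04 at 48 h, against 21.5 and 22.6 CPM with DMSO (1.49 ± 0.13, edgeR adjusted p 0.00373). FOS, a subunit of AP-1, had 20.6 and 21.8 CPM with JIB-04 at 48 h, against 8.07 and 9.85 CPM with DMSO (1.24 ± 0.16, edgeR adjusted p 0.0335). At 24 h DDIT3 had 42.1 and 37.0 CPM with JIB-04, against 22.1 and 20.7 CPM with DMSO, and missed the threshold (0.89 ± 0.13, edgeR adjusted p 0.0841). BBC3 and PMAIP1 are p53 targets, and of 16 other p53 targets tested none was called at 48 h (list median 0.21). AEN, a p53-induced nuclease, had 0.45 ± 0.14 and CDKN1A, the cell cycle inhibitor p21, 0.33 ± 0.17 (edgeR adjusted p 0.331 and 0.583). At 24 h no gene of these lists was called from the counts as deposited, where 0 of all genes were. With the GC trend taken out, 4 of the 18 regulators rose at 48 h and 1 fell, where 5.08% of all genes rose and 3.54% fell, and those beyond DDIT3 and FOS are named because of their values. JUN rose by 0.38, HIF1A, the oxygen-regulated factor, by 0.41, and TRIB3, a target of CHOP, fell by 0.79 on the log2 scale (edgeR adjusted p 0.0304, 0.00326 and 0.00276). Of the 16 other p53 targets, 2 were higher with JIB-04 than with DMSO in that test and none lower. These were MDM2 by 0.27 and DDB2 by 0.31 (edgeR adjusted p 0.0132 and 0.0157), likewise named because of their values. From the counts as deposited, DDB2 had 44.5 and 40.7 CPM with JIB-04 at 48 h, against 55.9 and 48.9 CPM at 24 h. With DMSO it went from 54.2 and 55.3 CPM at 24 h to 34.4 and 34.2 CPM at 48 h. At 24 h, with the GC trend taken out, 4 of the 18 regulators rose and 2 fell, DDIT3 among the first (0.90, edgeR adjusted p 0.000489), and 1 of the 16 other p53 targets rose, where 5.79% of all genes rose and 5.34% fell.

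The 5 genes whose pattern over the 8 libraries was most like that of BCL2L11 were found by the root mean square difference of centred log2 CPM. They were RNF19B (0.073), NFKBIZ (0.078), PITPNC1 (0.10), AHR (0.10) and ANKRD37 (0.11), where the median over 15247 genes was 0.44. At 48 h RNF19B and NFKBIZ also rose, by 0.87 each on the log2 scale (edgeR adjusted p 0.0431 for each), and the other 3 were not called. This is a description, since the genes were chosen for likeness to BCL2L11 in these same libraries, its rise at 48 h included. The calls of RNF19B and NFKBIZ are therefore not separate evidence.

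BCL2L11 and BBC3 had promoters of unlike composition. These are shown because, from the counts as deposited, BCL2L11 was called at 48 h and BBC3, with the same direction, was not. BBC3 had the larger estimate there (1.03 ± 0.41 against 0.93 ± 0.12), and was called with the GC trend taken out (edgeR adjusted p 0.0391). A link between these promoters and the response was not tested. Both are the 250 bases before the start site in RefSeq on GRCh38.p14, printed 5′ to 3′ on the gene's strand, with motif matches in capitals. The window of BCL2L11 lies inside the GENCODE span of the gene, and that of BBC3 spans the 5′ boundary of the gene.
BCL2L11 (chr2:111120664-111120913, plus strand): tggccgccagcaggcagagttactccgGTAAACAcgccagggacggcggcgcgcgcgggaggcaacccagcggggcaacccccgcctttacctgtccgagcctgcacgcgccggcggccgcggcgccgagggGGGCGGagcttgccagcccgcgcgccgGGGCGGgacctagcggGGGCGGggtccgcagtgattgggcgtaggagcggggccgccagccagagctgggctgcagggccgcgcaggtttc
BBC3 (chr19:47232668-47232917, minus strand): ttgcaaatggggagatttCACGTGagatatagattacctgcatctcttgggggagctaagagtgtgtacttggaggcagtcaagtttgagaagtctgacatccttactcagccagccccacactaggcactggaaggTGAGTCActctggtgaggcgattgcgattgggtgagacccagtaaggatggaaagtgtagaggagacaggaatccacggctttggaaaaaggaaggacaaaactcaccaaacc

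The promoter of BCL2L11 has 76.8% GC and that of BBC3 49.2%, where the median of 35116 RefSeq promoters is 58%. Motifs were searched on both strands. The BCL2L11 window holds the FOXO motif TGTTTAC, here on the reverse strand, which 2.98% of all promoters hold, and 3 SP1 boxes GGGCGG, which 42.6% hold. The BBC3 window holds an E-box CACGTG, found in 6.34% of promoters, and an AP-1 motif TGANTCA, found in 6.57%. The composite motif of ATF4 and CHOP, TGATGNAA, was in neither window and is in 3.14% of all promoters. The matches do not overlap one another. They are matches of letters, not sites, and the absence of letters in these windows says nothing of a factor's action on the gene.

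The length implied by count and TPM, the count divided by the TPM and scaled in each library on 273 genes with 1 transcript, depends on how RSEM shared reads among transcripts. For BCL2L11 it lay at 3427 and 3560 bases with JIB-04 at 48 h, against 3526 and 4148 bases with DMSO, and at 3547 and 4543 bases with JIB-04 at 24 h, against 4292 and 2995 bases with DMSO. The libraries of each pair of groups overlapped. The highest was 1.52 times the lowest, a ratio greater than that of 94.7% of 8468 genes. BID spanned 1001 to 1730 bases (1.73 times) and both extremes were DMSO libraries at 24 h, while BIK, with 1 annotated transcript, and BAK1 each spanned 1.004 times. BAD lay at 786 and 721 bases with JIB-04 at 48 h, against 526 and 648 bases with DMSO. A shift in TPM can thus differ from that in counts: at 48 h BID had 100.3 and 65.7 TPM with JIB-04, against 66.0 and 56.6 TPM with DMSO.

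**Figure D4:**
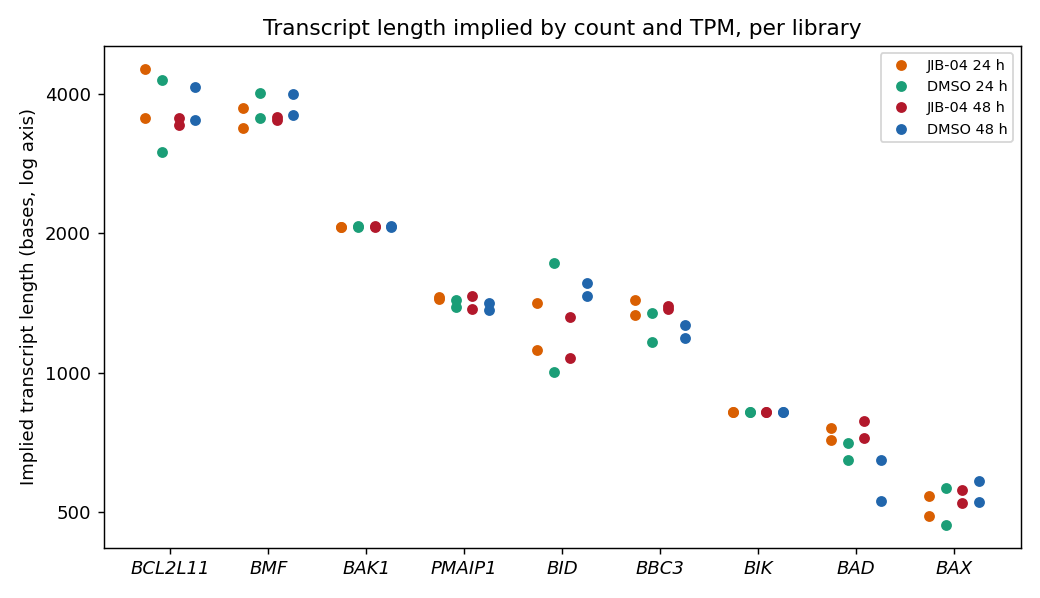
Transcript length implied by count and TPM (y axis, bases, log axis) for each of the 9 tested members in the 8 libraries, coloured by group. Each point is 1 library; BIK and BAK1 are nearly constant, while BID spans 1001 to 1730 bases and BCL2L11 2995 to 4543.

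BCL2L11 is overlapped on the opposite strand by MIR4435-2HG, a long non-coding RNA gene. It had 6.31 and 5.26 CPM with JIB-04 at 48 h, against 3.65 and 3.31 CPM with DMSO, and 6.08 and 5.83 CPM with JIB-04 at 24 h, against 4.21 and 3.40 CPM with DMSO. The JIB-04 libraries were above the DMSO libraries at each time, with a log2 difference of 0.73 ± 0.20 at 48 h (edgeR adjusted p 0.250). It held 778 counts in all, against 8088 for BCL2L11. The sources used here do not say whether reads were counted by strand, and the part of this gene in the result was not tested. The processed pseudogenes BAK1P1 and BAK1P2 held 10 and 0 counts, against 7718 for BAK1.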

How the data were processed

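Libraries were made with a stranded poly(A) kit, per the labels' protocols. The authors deposited 1 table per time with an expected count per gene and library, in whole numbers, and a TPM, per the file headers. Per the submitters' processing notes, reads went through cutadapt, STAR 2.6.1 and RSEM, with the build hg38. The deposited tables also hold the authors' own log2 fold change and p-value for JIB-04 against DMSO, made with a tool not given in the sources used here. Samples were grouped by title.

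Members and lists were chosen with earlier results of these data known. The 24077 genes in both tables were used; the rest held 0.00581% of counts. All 8 libraries were fitted in edgeR 4.0.16 (R 4.3.3; TMM; filterByExpr, minimum count 10 and total 15; 15248 genes; 4 residual degrees of freedom) with a two-sided quasi-likelihood F test and Benjamini-Hochberg adjustment over all tested genes; SEs are from that test. The script was tested on simulated data. TPM values were not tested. CPM values use TMM-scaled library sizes.

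Every member was named, and of each list the called genes or else up to 4 of lowest p at 48 h, from which the text gives a few. GC content is that of a gene's GENCODE 29 transcripts. A lowess curve (span 0.3) of each library's log2 CPM deviation on GC content was removed as an offset. Alternatives were DESeq2 1.42.0, its size factors, limma-voom (limma 3.58.1), no count filter, only the libraries compared, each library left out, and a replicate block. BAD, BBC3 and BIK had the fewest counts and the largest SEs of the tested members. At 48 h these SEs were 0.43, 0.41 and 0.28, and 0.19, 0.18 and 0.20 with the GC trend taken out. What set them was not tested. The floor of a count of 0 covers counting error only.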

Additional observations from a re-analysis of the deposited data

How the results depend on the processing

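The rise of BCL2L11 at 48 h kept its direction in all 16 alternatives, between 0.84 and 1.03 on the log2 scale, and stayed called in 11, with adjusted p between 2.82e-06 and 0.455. It was not called without any 1 of the 4 libraries of 48 h, where the lone library of an arm is assumed to vary like the others. Calls over all genes fell in those fits too. The number of members called at 48 h was 4 with the GC trend removed (8.62% of genes called). It was 3 from only the libraries of 48 h (BCL2L11, BBC3 and BAD, with 3.39% of genes called). With the GC trend removed and a replicate block it was 2 (BCL2L11 and BAK1, with 7.11%). At 24 h it was 2 with the GC trend removed and 1, BCL2L11, with the block as well (9.64%), and between 24 h and 48 h of JIB-04 it was 1, BCL2L11, in both of these (7.35% and 6.12%). The SEs with the GC trend removed do not count the error of the curves. Deviations of same-numbered libraries of JIB-04 and DMSO correlated at -0.667 at 24 h and 0.0353 at 48 h. Over the other 4 pairs of groups they correlated at -0.597 (JIB-04 at 48 h and DMSO at 24 h), 0.0471, 0.0865 and 0.668 (JIB-04 at 48 h and at 24 h). These deviations still hold the GC trend of each library, so they cannot tell whether the replicate numbers pair the samples. With the replicate block, 0 members were called at 48 h (BCL2L11 0.94, adjusted p 0.107) and 8 genes in all (0.0525%).

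Over all genes, 59 were called at 48 h (48 higher, 11 lower), against 1315 (775 higher, 540 lower) with the GC trend removed, 496 from only the libraries compared and 142 in DESeq2; at 24 h, 0 were called, against 1698 with the GC trend removed and 87 in DESeq2. Signs changed only for differences not called before or after the change. With the GC trend removed, without and with the block, PMAIP1 at 24 h had -0.018 and -0.018, BAX at 48 h -0.12 and -0.13, and the BAX difference between times -0.070 and -0.066. With DESeq2's size factors, in edgeR and in DESeq2, BID at 24 h had -0.0027 and -0.0027. With single libraries left out, the ranges that crossed 0 at 24 h were -0.19 to 1.14 for BBC3, -0.13 to 0.20 for PMAIP1, -0.15 to 0.22 for BID, -0.57 to 0.048 for BIK, -0.32 to 0.19 for BAX and -0.11 to 0.36 for BAK1. At 48 h they were -0.046 to 0.29 for BID, -0.30 to 0.35 for BIK and -0.19 to 0.27 for BAX. For the difference between times they were -0.11 to 1.22 for BBC3, -0.077 to 0.28 for BID, -0.40 to 1.03 for BAD, -0.031 to 0.63 for BIK and -0.12 to 0.39 for BAX. The cause was not tested. With TPM in place of CPM, 5 log2 ratios of mean levels moved by more than the SD between libraries, BID at 48 h for example to 0.44, against 0.14. BAD, BBC3 and BIK, which had 35 to 173 counts per library, had the largest SEs of the 9 tested members.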
